A study of Mus musculus with 6 samples.

Results

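The 10 genes described here encode the peptide hormones of the pancreatic islet other than insulin: Gcg, Sst, Ppy, Pyy, Ghrl, Cck, Gast, Npy, Penk and Ucn3. They were taken by gene name from a table of 54532 genes, and each name matched 1 row. The table came from mRNA of islets isolated from mice at 7 weeks of age. The comparison had 3 libraries of the genotype Wtap flox/flox, in which both copies of Wtap carry recombination sites, and 3 of the genotype Wtap-βKO, labelled as lacking Wtap in the insulin-producing β cells, and each library pooled islets of 3 mice. The promoter that drives the recombinase and the strain are not given in the sources used here. WTAP is a subunit of the complex that writes N6-methyladenosine on mRNA, and the series asks what it does for β-cell function.

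Islets hold several endocrine cell types, each known for its main hormone. Glucagon comes from α cells and raises blood glucose, somatostatin comes from δ cells and restrains the release of insulin and glucagon, pancreatic polypeptide comes from PP (γ) cells, and ghrelin comes from the rare ε cells. Each hormone is cut from a longer precursor by prohormone convertases inside dense-core granules. In bulk islet RNA, more cells of a type and more hormone RNA per cell cannot be told apart.

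All 10 genes had at least 1 read in at least 1 library, and 9 had a mean of at least 0.5 FPKM (fragments per kilobase of gene, scaled between libraries by the authors), the level required for testing. Cck was below it. In the libraries labelled Wtap-βKO, Sst and Gast rose and Ucn3 fell (limma, adjusted p below 0.05 over 15927 genes). The glucagon gene Gcg was 1.62-fold higher with no overlap between the groups, but did not pass (adjusted p = 0.0890). Thus 2 of 9 tested members were called higher, where 8.77% of all tested genes were, and 1 of 9 lower, where 11.3% were. The groups did not overlap for 5 members that were higher in the libraries labelled Wtap-βKO (19.1% of all tested genes) and for 1 that was lower (22.1%). The median log2 fold change over all tested genes was -0.0054. The shared direction of 8 of the 9 members is a count of genes and not a test.

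The 6 libraries held 16353297 to 18682745 reads, recovered from the FPKM values and the gene lengths. The library size that the deposited FPKM implies was 0.952 to 0.988 times the recovered reads in the controls and 1.04 to 1.07 times in the libraries labelled Wtap-βKO, so the scale differed between the groups. Scaled to recovered reads instead, 2336 genes were called higher and 1093 lower, against 1397 and 1798. Wtap itself was not lower: it was at 10.5, 11.4 and 11.6 FPKM in the controls and 11.2, 11.9 and 12.3 in the libraries labelled Wtap-βKO (log2 fold change 0.07, adjusted p = 0.475 by limma). This value covers the whole gene in all islet cells, so it may check nothing about a deletion in β cells, and every direction below is that of the libraries as labelled. Replicate 2 labelled Wtap-βKO stood apart from the others of its group for several hormone genes, and values without it are given beside those results. It also stood apart in read counts across genes (chi-square per degree of freedom 16.4 and 15.6 for its pairs, 5.06 for the other pair of the group). The tissue label fits the hormone levels: Ins2, Ins1 and Gcg ranked 1, 2 and 3 of all genes by mean FPKM, Ppy 6, Sst 7 and Pyy 10.

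Promoter sequence was at hand from RefSeq (GRCm38.p6) for 9 of the 10 members, as 250 bases before each annotated start. The last 100 bases before the start are shown for the 4 abundant hormone genes, and for Gast and Ucn3, which passed the test. They read 5′ to 3′ toward the start, and capitals mark the TATA core TATAA and the cAMP response element TGACGTCA, on either strand.
Gcg, chr2:62483654-62483753, minus strand: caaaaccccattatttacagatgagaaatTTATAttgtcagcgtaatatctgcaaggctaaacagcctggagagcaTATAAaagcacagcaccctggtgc
Sst, chr16:23890845-23890944, minus strand: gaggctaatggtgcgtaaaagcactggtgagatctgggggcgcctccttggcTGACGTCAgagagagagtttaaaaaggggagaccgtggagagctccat
Ppy, chr11:102101320-102101419, minus strand: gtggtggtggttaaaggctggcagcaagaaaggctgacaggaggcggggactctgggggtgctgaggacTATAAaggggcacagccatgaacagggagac
Pyy, chr11:102107833-102107932, minus strand: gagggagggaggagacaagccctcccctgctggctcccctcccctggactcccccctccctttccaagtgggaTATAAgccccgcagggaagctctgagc
Gast, chr11:100334307-100334406, plus strand: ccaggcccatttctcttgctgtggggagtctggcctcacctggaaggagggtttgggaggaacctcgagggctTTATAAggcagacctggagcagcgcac
Ucn3, chr13:3945350-3945449, minus strand: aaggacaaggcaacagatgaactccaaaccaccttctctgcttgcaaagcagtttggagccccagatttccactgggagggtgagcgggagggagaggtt

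The element TGACGTCA lay 48 bases before the RefSeq start of Sst, at position -48, and in no other member's window. It is a palindrome and was held by 1.55% of 32851 mouse promoter windows of the same length. The gene span used for the FPKM of Sst reaches further, to 23890958, so the Sst sequence shown (23890845 to 23890944) lies inside that span. TATAA on either strand was held by 22.8% of windows, and among members by Gcg at -24 and, on the opposite strand, at -71, by Ppy at -31, by Pyy at -27 and by Gast at -26. The Pyy position is counted from the RefSeq start whose sequence is shown. From another RefSeq start of Pyy the match lies at -83. The Gast match is overlapped by its copy on the opposite strand at -27. The homeodomain core TAATTA, held by 4.84% of windows, was in no member's window. These are matches of letters and are not evidence of binding.

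Gcg encodes proglucagon, the precursor of glucagon and of GLP-1. Its GRCm38 position is chromosome 2, 62474530 to 62483650, minus strand. The controls, in the order of their replicate numbers, were at 24177, 20117 and 23218 FPKM, and the libraries labelled Wtap-βKO at 35736, 31533 and 41946. The lowest value labelled Wtap-βKO was thus above the highest control. The means were 22504 ± 2122 and 36405 ± 5239 (SD, n = 3 each), a log2 fold change of 0.69 (95% interval 0.12 to 1.26). The adjusted p of 0.0890 by limma rests on an SE of 0.24, which borrows the spread of genes of like level, where the replicates of Gcg alone give 0.14. Without that variance trend the adjusted p was 0.0178, and Gcg was called higher in 9 of 20 alternatives, among them the one without replicate 2 labelled Wtap-βKO (0.0457). It was not called without control replicate 1, 2 or 3 (limma's adjusted p 0.157, 0.315 and 0.208). Nor was it without replicate 1 or 3 labelled Wtap-βKO (0.124 and 0.227). Without a filter on low values the adjusted p was 0.925.

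Sst encodes the precursor of somatostatin, the hormone of δ cells (chromosome 16, 23889573 to 23890958, minus strand). It was at 3914, 3800 and 4172 FPKM in the controls and at 5422, 8071 and 6519 in the libraries labelled Wtap-βKO. The controls lay within a narrow range, and every library labelled Wtap-βKO was above it. The rise was 1.68-fold (log2 fold change 0.73 with an SE of 0.17; limma's adjusted p = 0.0263) and 1.51-fold without replicate 2, the highest (adjusted p = 0.0246). With quantile normalization, which sets values by rank within a library, the log2 fold change of Sst was 0.40 (limma's adjusted p = 0.000767). The call was lost without control replicate 1, 2 or 3 (0.0823, 0.105 and 0.0731), without replicate 3 labelled Wtap-βKO (0.0735) and without a filter on low values (0.558), while the log2 fold change stayed between 0.70 and 0.77 in these.

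**Figure D1:**
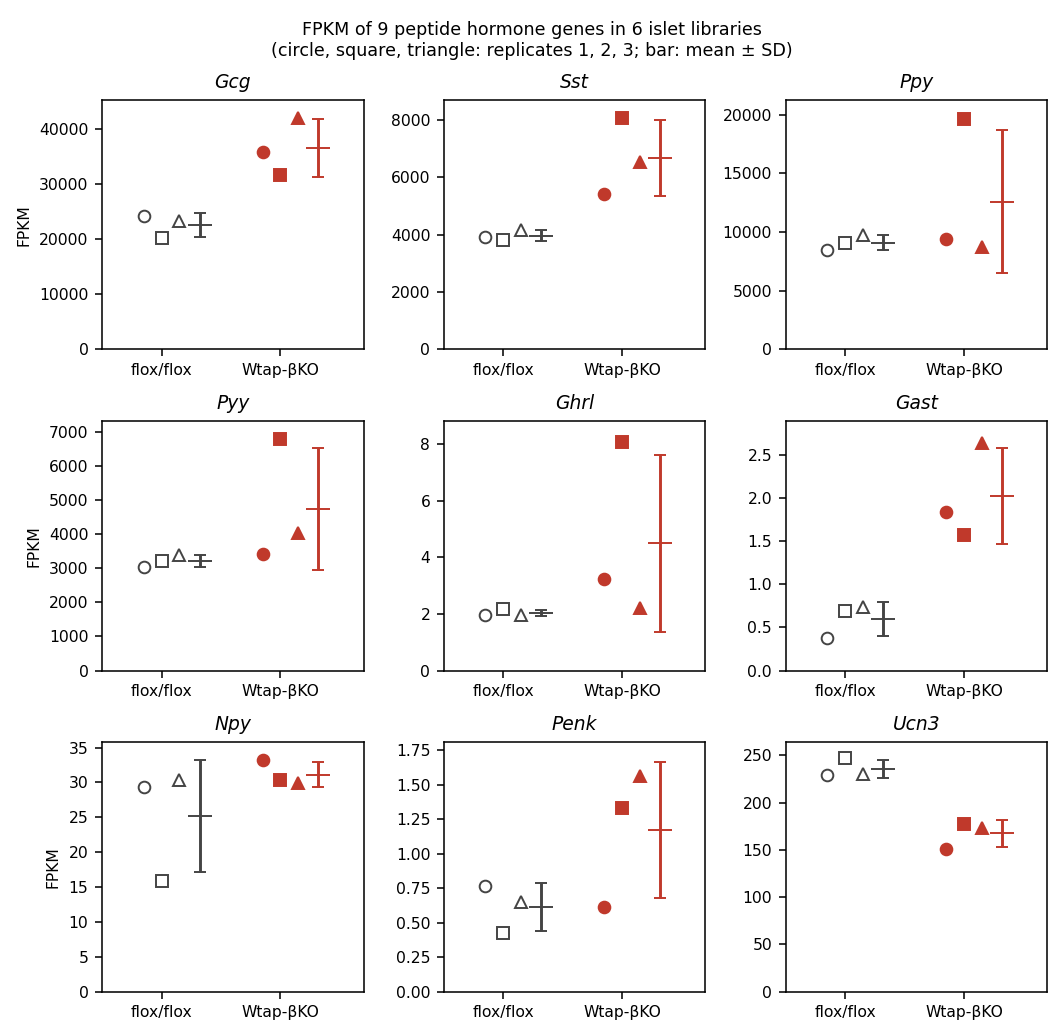
FPKM (linear axes from 0) of the 9 hormone genes with a mean of at least 0.5 FPKM in each of the 6 libraries, with open grey symbols for Wtap flox/flox and filled red symbols for Wtap-βKO, and bars for the mean ± SD of 3 libraries. Gcg, Sst and Gast lie higher and Ucn3 lower in all 3 libraries labelled Wtap-βKO, while Ppy, Pyy and Ghrl have 1 high library, replicate 2.

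The Gcg to Sst ratio of FPKM was 6.18, 5.29 and 5.57 in the controls and 6.59, 3.91 and 6.43 in the libraries labelled Wtap-βKO. The mean log2 ratio differed by -0.05 (exact permutation test, two-sided, p = 1; adjusted p = 1 over 6 ratios). Without replicate 2 labelled Wtap-βKO the difference was 0.20. The exact permutation test cannot go below p = 0.1 with 3 against 3 libraries, and does not show that the ratio was equal. Against insulin, the libraries had a Gcg to Ins2 ratio of 0.293, 0.217 and 0.250 in the controls and 0.652, 0.530 and 0.745 in the libraries labelled Wtap-βKO. Here the groups did not overlap (difference in mean log2 ratio 1.34, exact permutation p = 0.1, adjusted p = 0.6). In the same libraries Ins1 fell from 42913 ± 4356 to 16668 ± 1728 FPKM (n = 3 each, limma's adjusted p = 0.00869, a call lost without control replicate 2). Ins2 was at 89397 ± 5888 and 56847 ± 2391 and did not pass (log2 fold change -0.65 with an SE of 0.31, adjusted p = 0.190 by limma). Its groups did not overlap, at 82598 to 92872 FPKM in the controls and 54774 to 59463 in the libraries labelled Wtap-βKO. Iapp, which encodes amylin, another β-cell peptide, was at 13167 ± 1038 and 12959 ± 1438 (log2 fold change -0.03, 95% interval -0.46 to 0.40).

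Ppy and Pyy are sister genes of the neuropeptide Y family that lie side by side on chromosome 11, with 5356 bases between them. Ppy encodes pancreatic polypeptide (102099930 to 102101319, minus strand) and Pyy encodes peptide YY (102106676 to 102107832, minus strand), known from islets and from endocrine cells of the gut. Ppy was at 8489, 9034 and 9769 FPKM in the controls and at 9428, 19590 and 8761 in the libraries labelled Wtap-βKO. Replicate 2 was 2.15 times the control mean, and the other two lay within the control range. The mean was 1.38-fold higher, but the log2 fold change of 0.37 had a 95% interval of -0.39 to 1.13 (adjusted p = 0.455), and without replicate 2 the log2 fold change was 0.0010 (adjusted p = 0.997).

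Pyy showed the same library apart. It was at 3028, 3218 and 3382 FPKM in the controls and at 3435, 6789 and 4036 in the libraries labelled Wtap-βKO, so the groups did not overlap, but replicate 1 lay just above the highest control. The mean was 1.48-fold higher (log2 fold change 0.50, 95% interval -0.09 to 1.10, adjusted p = 0.200), and 1.16-fold without replicate 2 (adjusted p = 0.233). It was called in 1 of 20 alternatives, limma voom on recovered reads (adjusted p = 0.0423), and with quantile normalization its log2 fold change was 0.11. The Pyy to Ppy ratio was 0.357, 0.356 and 0.346 in the controls, and 0.364, 0.347 and 0.461 in the libraries labelled Wtap-βKO. The ratio in replicate 2 thus lay near the control values although both transcripts were more than doubled there.

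Ghrl encodes ghrelin (chromosome 6, 113716119 to 113719880, minus strand) and was rare, at 1.96, 2.17 and 1.98 FPKM in the controls (37, 37 and 38 reads). The libraries labelled Wtap-βKO were at 3.24, 8.08 and 2.20 FPKM (66, 156 and 41 reads). Replicate 2 was again the highest, 3.97 times the control mean, and replicate 3 lay barely above the controls. The mean was 2.21-fold higher (log2 fold change 0.71, 95% interval -0.11 to 1.54, adjusted p = 0.194 by limma) and 1.34-fold without replicate 2 (adjusted p = 0.209). Of its 1079 exon bases, 169 are shared with Gm44033 and 3 with Gm26982 on the opposite strand. The library protocol does not mark strand, so some Ghrl reads may belong to those genes.

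**Figure D2:**
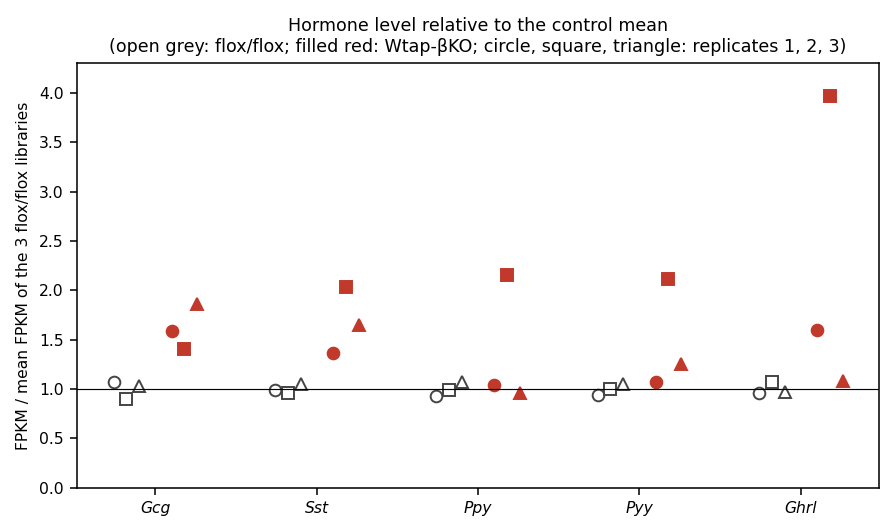
FPKM of 5 hormone genes in each library divided by the mean of the 3 Wtap flox/flox libraries (vertical axis, linear), with open grey symbols for Wtap flox/flox and filled red symbols for Wtap-βKO. Replicate 2 labelled Wtap-βKO (square) is at 2.04 to 3.97 for Sst, Ppy, Pyy and Ghrl, and at 1.40, the lowest of its group, for Gcg.

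In replicate 2 labelled Wtap-βKO, Sst, Ppy, Pyy and Ghrl were thus at their highest in the series and Gcg at the lowest of its group, and Gcg made up 47.6% of the summed FPKM of the 10 members, against 65.9% and 68.2% in the others of the group and 55.2% to 60.6% in the controls. The 7 genes listed as PP-cell markers other than the hormones summed to 74.0 FPKM in that library, against 65.5 and 61.1 in its group and 67.9 to 78.4 in the controls. Tspan8 alone was at 42.5 FPKM there, against 28.3 and 26.1, and without it, a split made after the values were seen, the other 6 genes summed to 31.5, the lowest of all 6 libraries, against 37.18 and 35 in its group and 44.0 to 51.4 in the controls. The 12 δ-cell markers summed to 467 FPKM there, against 402 and 421 in its group and 352 to 354 in the controls. The part of this library's cell makeup in the hormone levels was not tested.

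Npy encodes neuropeptide Y, the third gene of the family, made by neurons and by some islet cells (chromosome 6, 49822710 to 49829507, plus strand). It was at 29.3, 15.9 and 30.3 FPKM in the controls and at 33.2, 30.3 and 29.9 in the libraries labelled Wtap-βKO. Control replicate 2 was low, and all other libraries lay close together. The log2 fold change of 0.35 (95% interval -0.19 to 0.89, adjusted p = 0.321 by limma) was 0.06 without that library. Of 20 tested genes of other peptide hormones and neuropeptides, 7 were at their lowest in control replicate 2 and 1 at its highest.

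Gast encodes gastrin, a hormone of the stomach that the developing islet also makes (chromosome 11, 100334407 to 100336996, plus strand). It was rare, with 3, 5 and 6 reads in the controls and 16, 13 and 21 in the libraries labelled Wtap-βKO. In FPKM this was 0.372, 0.688 and 0.733 against 1.84, 1.58 and 2.65. The groups did not overlap, at levels close to the lowest tested. The rise was 3.38-fold in mean FPKM (log2 fold change of FPKM + 1 0.91, SE 0.17, limma's adjusted p = 0.0117). All 19 alternatives that kept the gene called it, with adjusted p from 0.00243 to 0.0402. With a pseudocount of 0.1 the log2 fold change was 1.62, since a pseudocount of 1 shrinks low values. Cck, which encodes cholecystokinin, the relative of gastrin, had 1 read in all 6 libraries, in replicate 1 labelled Wtap-βKO. It was thus not detectable at this depth in the other 5, where 3 reads would be 0.128 to 0.146 FPKM.

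Penk encodes proenkephalin, the precursor of opioid peptides (chromosome 4, 4133531 to 4138819, minus strand). It had 22, 11 and 19 reads in the controls and 19, 39 and 44 in the libraries labelled Wtap-βKO, or 0.768, 0.426 and 0.654 FPKM against 0.617, 1.33 and 1.56. Replicate 1 labelled Wtap-βKO lay among the controls, and the mean was 1.90-fold higher (log2 fold change 0.40, 95% interval -0.06 to 0.87, adjusted p = 0.194 by limma). Of its 1634 exon bases 233 are shared with A830012C17Rik on the opposite strand, which had no read.

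Ucn3, which encodes urocortin 3, was the member that fell. In mouse islets it is made by mature β cells and stimulates somatostatin release from δ cells (chromosome 13, 3940688 to 3945349, minus strand). It was at 229, 247 and 231 FPKM in the controls, and at 151, 178 and 173 under the label Wtap-βKO. The groups did not overlap. The fall was 1.41-fold, from 236 ± 9.75 to 167 ± 14.2 FPKM (n = 3 each; log2 fold change -0.49 with an SE of 0.08; limma's adjusted p = 0.00685). All 20 alternatives called it. Relative to Ins2, which had the lower mean in the same libraries, Ucn3 differed by 0.16 on the log2 scale, Wtap-βKO minus control (exact permutation p = 0.2, adjusted p = 0.6). Of 17 tested β-cell markers, which include both insulin genes, 14 fell and 0 rose (median log2 fold change -1.49 over the 17). The glucose transporter gene Slc2a2 fell 5.34-fold, Tmem215 4.77-fold and Papss2, needed to make the sulfate donor, 4.12-fold.

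**Figure D3:**
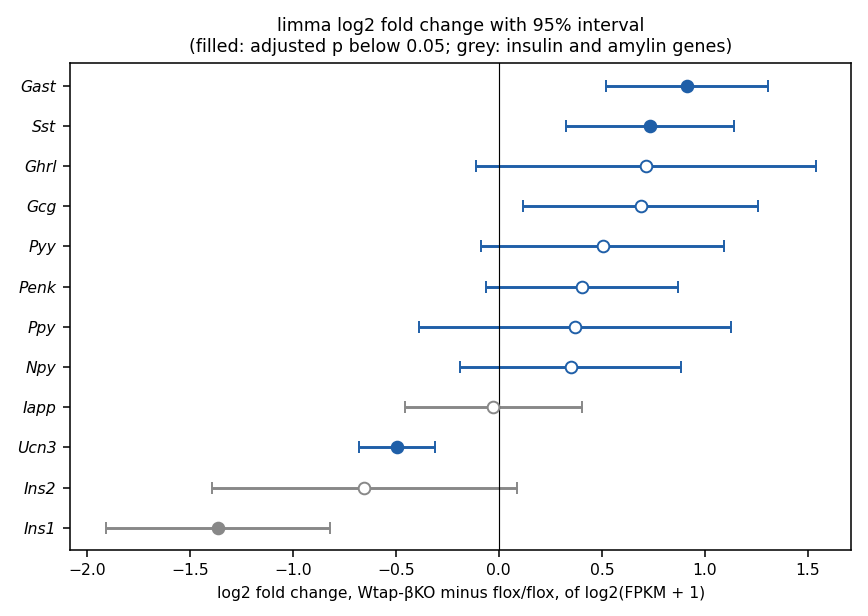
Log2 fold change of log2(FPKM + 1), Wtap-βKO minus Wtap flox/flox (horizontal axis), with its 95% interval from limma for the 9 tested hormone genes (blue) and for Iapp, Ins2 and Ins1 (grey). Filled symbols passed an adjusted p of 0.05. Sst and Gast are filled on the right, Ucn3 and Ins1 on the left, and the widest intervals among the hormone genes are those of Ghrl and Ppy.

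Summed over the 10 members, hormone transcripts made up 9.57%, 8.60% and 9.50% of all FPKM in the controls and 14.7%, 16.4% and 15.7% in the libraries labelled Wtap-βKO. These shares are given as a description. Gcg, Sst, Ppy and Pyy made up 99.3% to 99.7% of that sum. The total that they are taken from includes Ins1 and Ins2, which went from 31.2% ± 2.02 to 19.0% ± 0.183 of all FPKM (n = 3 each). With both insulin genes left out of the total, the members' shares were 12.8% to 14.0% and 18.2% to 20.2%.

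Over all tested genes 8.77% were called higher and 11.3% lower, the shares beside which each list count stands. Of 14 tested α-cell markers other than Gcg, 8 rose and 0 fell (median log2 fold change 0.46). Ttr (transthyretin) rose 2.06-fold, Gc (vitamin D binding protein) 1.56-fold and Smarca1 1.44-fold. The count was 5 without control replicate 2 or 3 or without replicate 3 labelled Wtap-βKO. Of 10 tested δ-cell markers, 5 rose and 0 fell, with a median of 0.38. Without replicate 2 labelled Wtap-βKO, 6 rose and 1, Sstr3, fell, though Sstr3 was called in no other alternative. Fgf12 rose 2.41-fold and Rbp4 (retinol binding protein) 1.35-fold, while the δ-cell transcription factor Hhex, at 8.52 ± 0.581 and 11.1 ± 1.76 FPKM, did not pass (adjusted p = 0.0887 by limma). Of 6 tested PP-cell markers, Abcc9 rose 1.43-fold, a call lost without any 1 of the 6 libraries, and Slitrk6 fell 1.71-fold. None of 3 tested ε-cell markers was called by limma (1, Vtn, was called higher with scaling to recovered reads, adjusted p = 0.0487), and Mboat4, which encodes the enzyme that acylates ghrelin, was below the level required for testing (0.0411 and 0.120 FPKM).

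Of 20 tested transcription factors of endocrine cell fate, 4 rose and 8 fell, but with scaling to recovered reads 9 rose and 6 fell. Among those that fell were Mafa (7.26-fold), Nkx6-1 (2.18-fold) and Neurod1 (1.54-fold). The count of 4 came to 2 without control replicate 3 and without replicate 2 or 3 labelled Wtap-βKO.

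Of 16 tested genes of prohormone processing and granules, which turn precursors into hormones and store them, 11 rose and 0 fell (median log2 fold change 0.65). The count of 11 came to 9 without control replicate 1 and to 8 without control replicate 2 or 3. It was 10 without any 1 of the libraries labelled Wtap-βKO. Chgb, a granin, rose 1.75-fold, Scg5, the chaperone of prohormone convertase 2, 1.68-fold, and Tpst1, a tyrosine sulfotransferase, 1.86-fold. These genes act in β cells as well as in the other endocrine cells.

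Of 20 receptor genes for these hormones only 6 reached the level required for testing. Glp1r, the GLP-1 receptor of β cells, fell 2.79-fold. Ghsr, the ghrelin receptor, known from δ cells, was at 1.72 and 2.57 mean FPKM and was called higher (adjusted p = 0.0289 by limma), a call that held in only 1 of 6 fits with a library left out, that without replicate 2 labelled Wtap-βKO. Gcgr, the glucagon receptor, was at 17.6 and 16.7, and Sstr3, a somatostatin receptor, at 82.0 and 74.8, and neither passed. Sstr3 was at 79.1, 81.0 and 86.0 FPKM in the controls and 65.8, 94.1 and 64.5 in the libraries labelled Wtap-βKO. Without replicate 2, the highest, Sstr3 was called lower (log2 fold change -0.33, limma's adjusted p = 0.0119). In the main fit and in every other alternative it was not called (limma's adjusted p 0.402 to 0.861). Of 50 further peptide hormone and neuropeptide genes 20 were tested. Edn3 (endothelin 3) rose 1.60-fold (adjusted p = 0.0176 by limma; lost without control replicate 2 or 3), and no other was called. The median log2 fold change of these 20 was 0.18, and 8.77% of all tested genes were called higher.

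**Figure D4:**
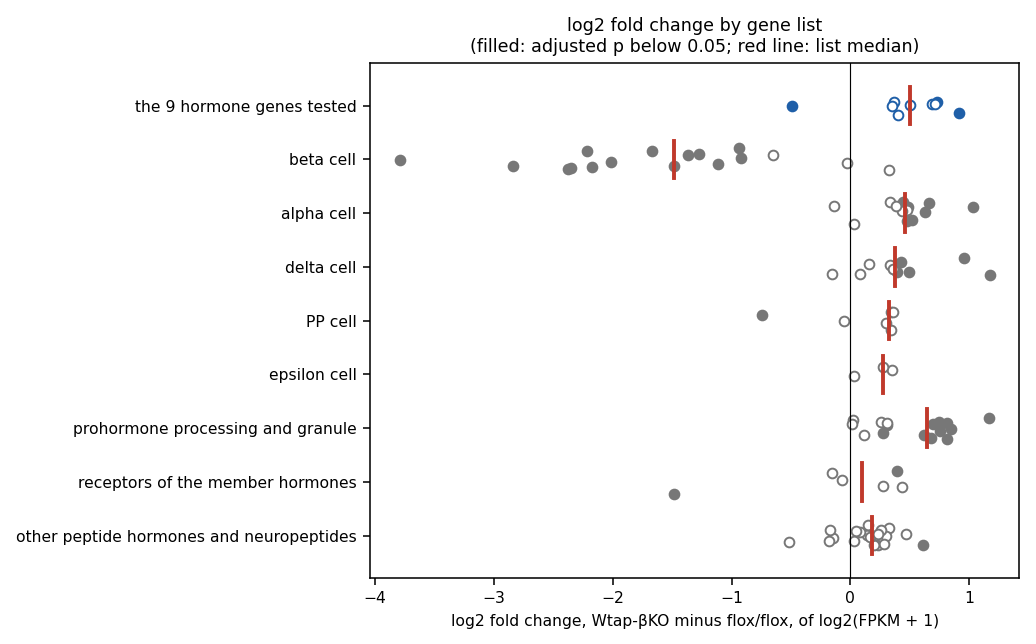
Log2 fold change of log2(FPKM + 1), Wtap-βKO minus Wtap flox/flox (horizontal axis), for each tested gene of the hormone set (blue) and of 8 gene lists (grey), with filled symbols for an adjusted p below 0.05 and a red line at each list's median. The medians are 0.46 for α-cell, 0.38 for δ-cell, 0.65 for processing genes and -1.49 for β-cell markers.

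Markers of cells outside the endocrine islet were summed in the same way. The summed FPKM of 16 acinar markers was 145 to 251 in the controls and 240 to 331 in the libraries labelled Wtap-βKO, and 2 of 13 tested rose, Try5 and Ctrb1 (0 without control replicate 1 or 2, 7 without control replicate 3, 1 without replicate 1 and 3 without replicate 3 labelled Wtap-βKO). The 11 mesenchymal markers summed to 64.1 to 74.8 and 95.6 to 109.6, with 6 of 10 tested higher (4 without control replicate 1 or 2 or without replicate 1 or 3 labelled Wtap-βKO), and the 11 lymphocyte markers to 15.04 to 16.7 and 55.9 to 64.0, with 2 of 4 higher, the plasma cell genes Igkc and Jchain, and 1 lower, Cd79a. Jchain, at a control mean of 0.375 FPKM, was tested only through its level in the libraries labelled Wtap-βKO. Endothelial (220 to 261 and 253 to 282), macrophage (100.4 to 110.6 and 119 to 134) and ductal markers (294 to 321 and 291 to 349) had overlapping ranges except the macrophage list, and 15 neuronal and Schwann cell markers summed to 56.7 to 70.2 and 54.2 to 54.5. Without Th, a split made after the values were seen, the other 14 summed to 17.9 to 32.03 and 37.2 to 42.9. By limma, 1 of 9 tested ductal (Spp1), 2 of 10 endothelial (Egfl7 and Eng), 1 of 8 macrophage (Lyz2) and 1 of 12 neuronal and Schwann cell markers (Nefm) rose, and 1 of those 12, Th, fell. Over all tested genes 8.77% were called higher and 11.3% lower, and the counts of 1 lie near these shares. The call of Eng was lost without any 1 of the 6 libraries. With 1 library left out, that of Egfl7 held only without replicate 2 labelled Wtap-βKO (limma's adjusted p = 0.0497), where 1 other endothelial marker was called in place of Eng. With scaling to recovered reads 5 acinar, 4 endothelial, 2 macrophage and 2 neuronal and Schwann cell markers were called higher, and with scaling without the 50 highest genes 4, 2, 2 and 2. Over all genes, these scalings called 2336 of 15957 and 1677 of 15931 tested genes higher. No gene of these lists was at 0 in all 6 libraries. Their part in the hormone levels was not tested.

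Because WTAP belongs to the N6-methyladenosine writer, the motif GGACT, a frequent form of the methylated sequence, was counted in the longest protein-coding transcript of each gene (GENCODE M21). Sst, Pyy, Ghrl and Ucn3 held 0 copies, Ppy, Cck, Gast and Npy 2 each, and Gcg and Penk 3 each. Over 12692 tested protein-coding genes the median was 3 copies and 7.75% held none. The members' transcripts are short, 460 to 1478 bases against a median of 3130. A count of letters says nothing of methylation, which these files do not measure.

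Genes whose profile over the 6 libraries came closest to that of a member were sought among 7306 genes with a mean of at least 5 FPKM, by the root-mean-square difference of log2(FPKM + 1) after each gene was centred on its own mean. For Gcg these were Dynll1, Gpx3 and Nefm (0.035 to 0.042), for Sst Nenf, mt-Rnr1 and Aldh3b1 (0.054 to 0.087), and for Ucn3 Pkm, Pofut2 and Pik3r2 (0.028 to 0.038). For Ppy they were Nek7, Sult1d1 and Sgsm3 (0.11 to 0.12), for Pyy Rxra, Rai2 and Cdkn1a (0.096 to 0.11), and for Ghrl Mdm1, Rpl17 and Rgs2 (0.16 to 0.20). All 9 genes closest to Ppy, Pyy or Ghrl were highest in replicate 2 labelled Wtap-βKO, for example Mdm1 at 120 FPKM against 46.1 and 46.7 in its group. This follows from choosing them by profile. For Gast, Ffar2, Stk32a and Sh3d21 were closest (0.098 to 0.13), and for Npy, Rtn1, Anxa2 and Parm1 (0.14 to 0.15). With 6 libraries in 2 groups, many genes fit such a profile, and likeness is a description.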

How the data were processed

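Poly-A RNA libraries of islets from 6 pools of mice were compared, 3 of each genotype. The authors deposited 1 table of FPKM values with a gene length per gene. The submitters' processing notes name GRCm38 and mm10 as builds and, without roles, DESeq2 1.20.0, featureCounts 1.5.0-p3, HISAT2 2.0.5 and CASAVA. Multiplying FPKM by length gave steps of 1 read, whole within 0.01 for 100% of values, and so the reads; floors cover counting error only. Of the gene identifiers, 54409 were in GENCODE M21, and all 10 members had the same coordinates there.

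Testing used log2(FPKM + 1) and limma 3.58.1 in R 4.3.3 (lmFit and trended eBayes, two-sided) on the 15927 genes whose mean FPKM reached 0.5. Benjamini-Hochberg adjustment ran over all of them, at a threshold of 0.05. FPKM was used as deposited: a median-of-ratios factor was 1.01 in every library. Fold changes on the log2 scale understate those of low genes; folds are ratios of mean FPKM. The scripts were tested on simulated data. Ratios were compared with exact permutation tests (SciPy 1.17.1). The labels call the libraries of a group independent biological replicates, and their counts varied beyond sampling noise (chi-square per degree of freedom 5.06 to 16.4). The pairs with replicate 2 labelled Wtap-βKO gave 16.4 and 15.6, and all other pairs 5.06 to 6.15. Up to 3 called genes of each list, by adjusted p and a mean FPKM of at least 1, were named, except items not reported here; Hhex, Mboat4, Gcgr, Sstr3, Vtn and Tspan8 were named outside this rule after their values were seen. The members and the lists were chosen with earlier results of these data known. Alternatives covered scaling, pseudocount, filter, variance trend, a replicate block, limma voom on the reads, a table of protein-coding genes and leaving out each library.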

Additional observations from a re-analysis of the deposited data

How the results depend on the processing

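Of the 9 tested members, Gast and Ucn3 kept their call under every alternative run that retained them, and no member changed direction. The number of members called higher, 2, was 1 without a filter on low values, 4 with limma voom on recovered reads and 1 to 3 with 1 library left out. Gcg joined Sst and Gast with scaling to recovered reads, scaling without the 50 highest genes and quantile normalization (limma's adjusted p for Gcg 0.0333, 0.0484 and 0.00213). Quantile normalization sets values by rank within a library. Gcg ranked below Ins1 in every control and above it in every library labelled Wtap-βKO, so the 0.00213 rests on those ranks. Gcg also joined Sst and Gast without a variance trend, with a robust trend and with protein-coding genes only (0.0178, 0.0152 and 0.0457). The number called lower was 1 throughout. Over all genes, 1397 were called higher and 1798 lower; scaling to total recovered reads gave 2336 and 1093 (68.1% higher, against 43.7%) and moved the median log2 fold change to 0.08, scaling without the 50 highest genes gave 1677 and 1440 (53.8%), and leaving out 1 library gave 782 to 1380 and 1027 to 1853. Without the filter 1003 and 1337 were called. The ratio of the members' share of FPKM between the groups, 1.69, was 1.44 with Ins1 and Ins2 out of the total. The replicate numbers showed little sign of pairing. The correlation of deviations was 0.018 to 0.038 for equal numbers and -0.037 to 0.013 for unequal ones, small but without overlap. With the replicate block 1148 genes were called higher and 1490 lower, and 2 members higher and 1 lower. Reads limit Cck, Gast, Penk and Ghrl.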
